A study of Homo sapiens with 24 samples.

Results

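Gene expression in mocetinostat-treated ID3-KO U2OS cells was compared with that in mocetinostat-treated WT U2OS cells, both collected at the end of the treatment and before any recovery. The members of the comparison were taken by sample title and make up 6 of the 24 RNA-seq libraries of the series, 3 biological replicates per genotype. U2OS is an established human osteosarcoma line. The treated ID3-KO group carried a knockout of ID3, the treated WT group carried none, and both had been in mocetinostat for 24 h. How the knockout was made, whether the ID3-KO line is 1 clone or a pool, and the dose of mocetinostat for the sequenced cells are not given in the sources used here. Because each genotype is a single line in these libraries, an effect of ID3 loss and any other difference between the lines cannot be told apart. For context the text uses untreated ID3-KO and untreated WT U2OS cells (3 libraries each), and ID3-KO and WT AID-DIvA cells after mocetinostat and a further 24 h without the drug (3 libraries each). AID-DIvA is a U2OS derivative that carries the AsiSI restriction enzyme, which can be switched on to cut DNA. The library names of the U2OS samples also hold the word DivA, and the cell line label is used here as given.

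ID3 is 1 of the 4 ID proteins, which have a helix-loop-helix domain but no basic region to bind DNA. They pair with the E proteins (TCF3, TCF4 and TCF12) and keep them, and the tissue bHLH factors that need E proteins as partners, away from E-box sequences. Mocetinostat inhibits class I histone deacetylases, enzymes that remove acetyl groups from histone tails and other proteins.

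The 3 treated ID3-KO libraries held between 50660775 and 62530744 counts, and the 3 treated WT libraries between 46285533 and 70496130. Mitochondrial transcripts took 5.84% to 6.87% of the counts of these 6 libraries and ribosomal protein genes 4.69% to 4.75%. Of the 10 mesenchymal and osteosarcoma markers, 8 had a mean of at least 1 CPM (counts per 1000000), with SPARC, COL1A1, VIM and FN1 the most abundant, whereas TWIST1 was read in no library. Of the 5 leukocyte markers none reached 1 CPM, and their summed level was 0.738 to 0.960 CPM in ID3-KO and 0.642 to 0.765 CPM in WT. Of the 5 epithelial markers 3 did (CLDN4, EPCAM and ESRP1), and the list summed to 48.2 to 53.5 CPM in ID3-KO and 65.6 to 67.8 CPM in WT. One untreated library stood apart: in WT replicate 1 ribosomal protein genes took 6.56% of the counts, against 4.74% to 5.01% in the other 5 untreated U2OS libraries. The counts of calls, the shared calls, the interaction counts and the choice of shifted regions are therefore also given without it. Other values from untreated cells include it unless stated.

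ID3 itself, at chr1:23884409-23886285 (hg19), was lower in ID3-KO cells but still read. Its level was 42.1, 31.6 and 36.5 CPM in the ID3-KO libraries and 93.1, 81.8 and 80.6 CPM in the WT libraries. No ID3-KO library overlapped a WT library, and the difference was -1.21 on the log2 scale (SE 0.09, adjusted p = 4.92e-07). A count per gene does not show whether the RNA that is left could make ID3 protein. In untreated U2OS cells the difference of ID3 was -1.03, and in treated and recovered AID-DIvA cells it was -0.89.

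Of the 21800 genes tested, 286 were called higher in ID3-KO cells (1.31%) and 475 were called lower (2.18%), a call being an adjusted p below 0.05 with a log2 difference past 1. At any fold, 4133 genes (19%) were higher and 4134 (19%) lower at the same adjusted p. The median over all genes tested was -0.003 on the log2 scale, and 5% of them lay below -0.72 and 5% above 0.60. Among genes with a mean of at least 1 CPM, 140 were called higher and 183 lower, and in all 323 the ID3-KO and WT libraries did not overlap, as was the case in 55.4% of all 15999 genes at that level. Of these, 26 of the higher and 18 of the lower genes differed more than 4-fold.

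The largest differences are given for called genes with a mean of at least 1 CPM over the 6 libraries and no overlap between genotypes. Over all genes tested the log2 differences ran from -5.36 to 9.74. Among the genes so chosen, those furthest above WT were genes that WT cells hardly transcribed. IGFBP4, which encodes a binding protein for insulin-like growth factors (chr17:38599702-38613983), stood at 52.9, 48.0 and 50.2 CPM in ID3-KO cells and at 0.303, 0.145 and 0.150 CPM in WT cells. All 3 ID3-KO libraries were far above all 3 WT libraries, which held 19, 7 and 11 counts, and the log2 difference was 7.96 (SE 0.12, adjusted p = 2.00e-28), or 249-fold. DLX4, a homeobox transcription factor (chr17:48046334-48052321), stood at 12.6, 10.7 and 11.4 CPM against 0.112, 0.124 and 0.123 CPM, a log2 difference of 6.58 (SE 0.16, adjusted p = 1.01e-22). C17orf96, also known as EPOP, a partner of the Polycomb repressive complex 2 (chr17:36827961-36831187), stood at 25.6, 21.3 and 22.0 CPM against 0.399, 0.765 and 0.519 CPM, a log2 difference of 5.40 (SE 0.13, adjusted p = 4.90e-22). HOXB2, a homeobox factor that patterns the body axis (chr17:46618256-46623441), had a mean difference of 4.44 (SE 0.16, adjusted p = 4.65e-19), and C1QTNF1, a secreted relative of complement C1q (chr17:77018896-77045870), one of 4.27 (SE 0.13, adjusted p = 6.26e-21). For both, the ID3-KO and WT libraries lay far apart, with HOXB2 at 5.53 to 5.92 CPM against 0.255 to 0.290 CPM.

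MAGEB1 and CTAG2, both known as cancer-testis genes and normally silent outside the germ line, were also far above WT. MAGEB1 (chrX:30261847-30270155) stood at 8.71, 7.02 and 7.66 CPM in ID3-KO cells and at 0.191, 0.0828 and 0.0820 CPM in WT cells, a log2 difference of 6.01 (SE 0.20, adjusted p = 4.65e-20). CTAG2 (chrX:153880246-153881853) stood at 3.66, 3.78 and 4.17 CPM against 2, 0 and 3 counts in the WT libraries, so the fitted log2 difference of 7.06 (SE 0.29) rests on very few WT counts. CTAG2 also has a near-identical copy in the genome, and how the counting shared their reads is uncertain. ARMC3 (3.65, 4.14 and 3.59 CPM against 3, 2 and 1 WT counts), RTP3, PCDHGB4, CTD-2267D19.3 and TCEAL7 complete the 12 largest positive differences, with log2 values between 3.96 for TCEAL7 and 6.78 for ARMC3. PCDHGB4 shares its last exons with the other genes of the gamma protocadherin cluster, so its counts are uncertain too.

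**Figure D1:**
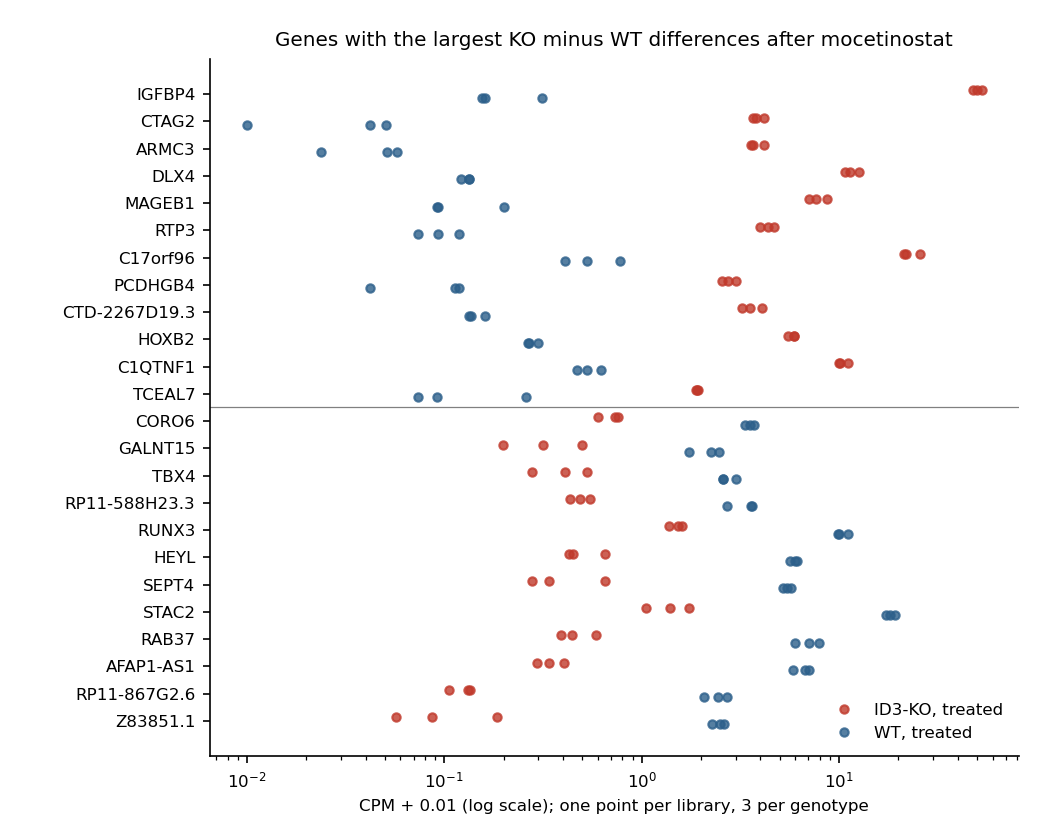
Level in each treated U2OS library (CPM + 0.01, log axis), with 1 point per library, ID3-KO in red and WT in blue. Shown are the 12 genes with the largest positive and the 12 with the largest negative ID3-KO minus WT difference. They were drawn from called genes with a mean of at least 1 CPM and no overlap between genotypes. The separation of the points was therefore set by the choice. Examples are IGFBP4 (48.0 to 52.9 against 0.145 to 0.303 CPM) and CORO6 (0.591 to 0.750 against 3.33 to 3.68 CPM).

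Chosen in the same way, the genes furthest below WT held 4 long noncoding or clone-named transcripts and several developmental and signalling genes. STAC2, an adaptor of voltage-gated calcium channels (chr17:37366789-37382125), stood at 1.73, 1.05 and 1.38 CPM in ID3-KO cells and at 17.3, 19.2 and 18.2 CPM in WT cells, a log2 difference of -3.70 (SE 0.11, adjusted p = 3.95e-21). HEYL, a bHLH repressor that Notch signalling turns on (chr1:40089825-40105617), stood at 0.419, 0.439 and 0.643 CPM against 5.66, 6.14 and 5.96 CPM, a log2 difference of -3.54 (SE 0.15, adjusted p = 1.75e-17). RUNX3, a runt-domain transcription factor (chr1:25226002-25291612), stood at 1.59, 1.37 and 1.52 CPM against 11, 10.01 and 9.84 CPM, a log2 difference of -2.78 (SE 0.10, adjusted p = 1.07e-18). In each of these 3 genes every ID3-KO library was below every WT library, as the choice of genes required. RAB37, a small GTPase of secretory vesicles, and SEPT4, a septin, differed by -3.88 (SE 0.16) and -3.70 (SE 0.18), TBX4, a T-box factor of limb development, by -2.75 (SE 0.20), and CORO6, an actin-binding coronin, by -2.34 (SE 0.16). AFAP1-AS1 (chr4:7755817-7780655), at 0.286 to 0.392 CPM against 5.85 to 7.03 CPM, lies antisense to AFAP1. Its log2 difference was -4.25 (SE 0.16) in counts from either strand and -5.08 in counts of the reverse strand.

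Further called genes had the smallest p-values or the highest levels. COL3A1, the chain of type III collagen (chr2:189839046-189877472), stood at 91.4, 91.9 and 95.4 CPM in ID3-KO cells against 16.1, 15.4 and 15.6 CPM in WT cells (log2 difference 2.57, SE 0.05, adjusted p = 5.05e-25). LCP1, the actin-bundling protein L-plastin (chr13:46700055-46786006), went the other way, at 16.7, 15.8 and 16.2 CPM against 55.1, 51.7 and 58.9 CPM (log2 difference -1.76, SE 0.06, adjusted p = 4.85e-20). JUP, the junction protein plakoglobin, differed by -1.55 (SE 0.05, adjusted p = 7.63e-21), and COL6A3, a chain of type VI collagen, by -1.47 (SE 0.04, adjusted p = 6.31e-21). JUP spans 39775692 to 39943183 of chromosome 17 in the annotation and covers nearly all of KRT17, so reads of the pair may not be told apart. KRT81, a hair keratin, was among the most abundant genes called higher, at 222, 182 and 198 CPM against 79.4, 80.1 and 82.1 CPM (log2 difference 1.32, SE 0.05, adjusted p = 8.08e-17). Reads of keratin genes can be shared with their close relatives, so this value is uncertain.

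Since ID3 acts through E proteins, the DNA before the start of these genes was searched for E-box words. The words were CAGCTG, which reads the same on both strands, and CACCTG, which reads CAGGTG on the other strand, and by their letters these words cannot overlap one another. RefSeq promoter sequences (build GRCh38.p14, not the hg19 of the counts) were matched for 12015 of the 21800 genes tested, and in the 250 bases before the start 26.9% of them held either word. Among the called genes the share was 26.4% of 121 matched genes that were higher and 33.5% of 191 matched genes that were lower. Over all 27305 promoters of the table it was 28.5%. Of the 40 genes named for the size of their difference, their p-value or their interaction, 17 were matched, and 4 of these held a word: RUNX3, CORO6, LCP1 and FBXO27, all lower in ID3-KO cells. IGFBP4, which had the largest positive difference among called genes with a mean of at least 1 CPM, holds neither word in its 250 bases. The sequences of the 4 genes are given with that of IGFBP4. Each runs from 5′ to 3′ on the strand of the gene, with the word in capitals. They lie at chr1:24965011-24965260 (minus strand) for RUNX3, chr17:29622913-29623162 (minus) for CORO6, chr13:46182178-46182427 (minus) for LCP1, chr19:39032550-39032799 (minus) for FBXO27 and chr17:40443200-40443449 (plus) for IGFBP4.
RUNX3: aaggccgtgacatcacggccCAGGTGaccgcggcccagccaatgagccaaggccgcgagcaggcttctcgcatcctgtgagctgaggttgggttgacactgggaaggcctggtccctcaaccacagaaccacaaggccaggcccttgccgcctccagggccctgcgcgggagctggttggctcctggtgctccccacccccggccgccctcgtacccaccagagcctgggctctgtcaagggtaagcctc
CORO6: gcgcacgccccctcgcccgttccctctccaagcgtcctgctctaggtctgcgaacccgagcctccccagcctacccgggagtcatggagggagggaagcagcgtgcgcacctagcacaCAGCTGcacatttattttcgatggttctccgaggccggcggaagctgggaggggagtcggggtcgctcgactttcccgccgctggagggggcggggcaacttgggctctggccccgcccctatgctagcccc
LCP1: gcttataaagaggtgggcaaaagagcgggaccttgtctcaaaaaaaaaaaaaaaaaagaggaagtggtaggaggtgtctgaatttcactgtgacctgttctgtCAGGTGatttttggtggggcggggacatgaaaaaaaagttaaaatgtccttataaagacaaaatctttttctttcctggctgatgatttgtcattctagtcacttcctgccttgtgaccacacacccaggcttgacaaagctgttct
FBXO27: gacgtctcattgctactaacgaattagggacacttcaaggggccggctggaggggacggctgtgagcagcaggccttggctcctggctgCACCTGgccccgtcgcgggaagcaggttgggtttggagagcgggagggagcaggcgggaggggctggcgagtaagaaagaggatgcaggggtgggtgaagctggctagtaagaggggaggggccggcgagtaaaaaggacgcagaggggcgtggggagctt
IGFBP4: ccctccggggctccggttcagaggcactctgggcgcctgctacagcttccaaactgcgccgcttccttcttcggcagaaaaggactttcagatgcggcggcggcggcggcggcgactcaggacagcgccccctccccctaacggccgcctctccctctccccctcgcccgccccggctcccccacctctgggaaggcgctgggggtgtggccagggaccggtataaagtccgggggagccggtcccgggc
The word began 230 bases before the start in RUNX3, 132 in CORO6, 147 in LCP1 and 161 in FBXO27. These matches describe letters in the reference genome, and binding of any factor was not measured in these libraries.

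The called genes were unevenly spread along the chromosomes. Among genes with a mean of at least 1 CPM, chromosome 11 held 49 of the 140 called higher and chromosome X 28 of the 183 called lower, and chromosome 17 held 25 called higher and 22 called lower. Of all 15999 genes at that level, chromosome 11 held 883, chromosome X 568 and chromosome 17 970. On chromosome 11 the genes formed an unbroken stretch from CCDC82 to CADM1, chr11:96085933-115375675. All 70 genes of it with at least 1 CPM were higher in ID3-KO cells, each with an adjusted p below 0.05, and 48 were called. Their median log2 difference was 1.29 (quartiles 0.91 and 1.44). The 10 genes before the stretch had a median of 0.47 and the 10 genes after it, from BUD13 to CEP164, one of -0.04. On chromosome X the 55 genes from SYTL5 to WDR13, chrX:37865835-48463581, were all lower with an adjusted p below 0.05, and 27 were called. Their median was -0.97 (quartiles -1.18 and -0.79), that of the 10 genes before it 0.14 and that of the 10 genes after it, from SUV39H1 to GRIPAP1, -0.20. The ends of both stretches were set after the values along the chromosomes had been seen, so these counts are a description without a test.

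**Figure D2:**
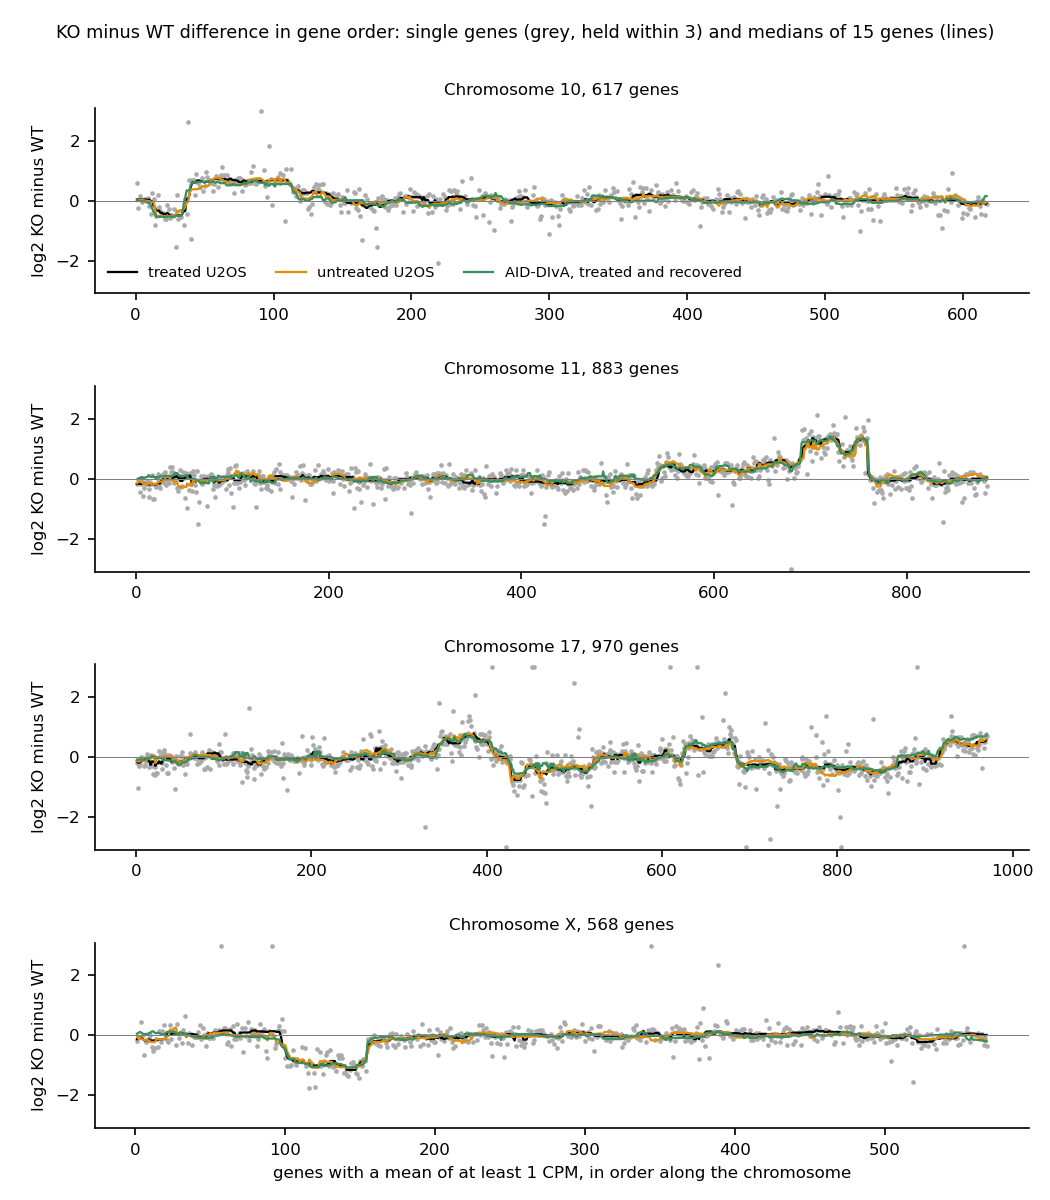
ID3-KO minus WT log2 difference of each gene with a mean of at least 1 CPM in treated U2OS cells, in order along chromosomes 10, 11, 17 and X (x axis, rank of the gene on the chromosome), as grey points held within 3 in either direction. Lines are medians of 15 neighbouring genes in treated U2OS, untreated U2OS and treated and recovered AID-DIvA cells. The stretch on chromosome 11 sits near 1.29 and that on chromosome X near -0.97. In treated U2OS cells the 10 genes before and the 10 genes after had medians of 0.47 and -0.04 on chromosome 11. On chromosome X these medians were 0.14 and -0.20.

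The stretch on chromosome 11 holds many well-known genes. ATM, the kinase that signals DNA double-strand breaks (chr11:108093211-108239829), stood at 49.6, 61.7 and 58.9 CPM in ID3-KO cells and 23.5, 24.1 and 21.0 CPM in WT cells, a log2 difference of 1.32 (SE 0.07, adjusted p = 4.99e-13). Its neighbour NPAT, a coactivator of histone gene transcription, differed by 1.5 (SE 0.06), YAP1, the transcriptional coactivator of the Hippo pathway, by 1.38 (SE 0.06), and BIRC2, an inhibitor of apoptosis, by 1.1 (SE 0.06). CADM1, a cell adhesion molecule at the end of the stretch, stood at 115, 125 and 122 CPM against 31.5, 31.8 and 29.2 CPM and had the smallest p-value of the genes on chromosome 11 (log2 difference 1.98, SE 0.05, adjusted p = 2.99e-22). TMEM123 (1.49, SE 0.04), NCAM1 (1.16, SE 0.04), the membrane-actin linker RDX (1.37, SE 0.05) and the nuclease REXO2 (1.38, SE 0.05) were 4 of the 5 most abundant genes called higher. CUL5 (1.42), ZW10 (1.47) and USP28 (1.30), named after their values were seen, lay at the same size. BIRC3, next to BIRC2 and likewise named after its values were seen, was the gene nearest to no difference among those given here, at 41.1, 37.4 and 35 CPM against 34.3, 32.8 and 35 CPM (log2 difference 0.16, SE 0.06, adjusted p = 0.0328).

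The stretch on chromosome X holds TIMP1, an inhibitor of matrix metalloproteinases (chrX:47441712-47446188), which was the most abundant gene called lower. It stood at 274, 236 and 255 CPM in ID3-KO cells and 661, 645 and 641 CPM in WT cells, a log2 difference of -1.34 (SE 0.05, adjusted p = 1.59e-19). TIMP1 lies inside the annotated span of SYN1 (difference -1.22, SE 0.06), so their reads may be shared. CDK16, a cyclin-dependent kinase, differed by -1.03 (SE 0.05), and MAOB, a monoamine oxidase of the mitochondrial outer membrane, by -1.26 (SE 0.07). Among genes named after their values were seen, the kinase ARAF differed by -1.25, the deubiquitinases USP11 and USP9X by -1.20 and -0.85, the ubiquitin-activating enzyme UBA1 by -0.97, and the histone demethylase KDM6A by -0.97.

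To see whether other regions were shifted, the genome was divided into bins of 5 Mb, and the bins with a median past 0.5 in either direction over at least 10 genes were picked on the untreated libraries, which the treated comparison does not use, over the genes with at least 1 CPM in those libraries. They were 14 bins, and all 14 were among the 15 bins picked without WT untreated replicate 1. In treated cells, over their 357 genes with at least 1 CPM there, all 14 kept the sign of the untreated median, with medians between 0.47 and 1.35 in size. Besides chromosomes 11 and X they lay on chromosome 10 (0.63 to 0.69 between 10 and 30 Mb, and -0.50 between 5 and 10 Mb), on chromosome 17 (0.64 between 30 and 35 Mb and 0.51 between 80 and 85 Mb), on chromosome 2 (-0.58 between 120 and 125 Mb) and on chromosome 7 (-0.47 between 30 and 35 Mb). The bins held 495 of the 21800 genes tested (2.27%), with 87 of the 286 genes called higher and 41 of the 475 called lower, so that 199 and 434 calls lay outside them. IGFBP4, DLX4, C17orf96, HOXB2, COL3A1, HEYL, RUNX3 and STAC2 were among those outside. Lying outside the bins does not place a gene outside every shifted region. CCDC82, at the start of the stretch on chromosome 11, was called and lay outside the bins. Chromosome 17 between 50 and 55 Mb (median 0.64 over 10 genes) and between 70 and 75 Mb (-0.41 over 78 genes) was not picked either. DNA copy number was not measured in these libraries, and its part in the shifted regions was not tested.

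Of the other ID genes, ID1 and ID2 were lower as well and ID4 did not pass the test, and of the E proteins TCF12 alone passed it. ID1, the most abundant ID gene, stood at 380.5, 288 and 315 CPM in ID3-KO cells and 519.7, 501 and 522 CPM in WT cells, a log2 difference of -0.64 (SE 0.08, adjusted p = 1.57e-04). ID2 differed by -0.54 (SE 0.07, adjusted p = 5.70e-07) and ID4 by -0.17 (SE 0.08, adjusted p = 0.0892). For ID1 and ID2 no ID3-KO library reached a WT library, whereas those of ID4 overlapped. TCF3 (-0.02, SE 0.05, adjusted p = 0.737) and TCF4 (-0.03, SE 0.06, adjusted p = 0.727) did not pass, and TCF12 was higher (0.20, SE 0.05, adjusted p = 9.35e-04). Of the tissue bHLH factors 13 of 25 were tested, with 2 higher and 2 lower. The only one called was NEUROD1, a factor of neurons and endocrine cells, at 1.90, 1.79 and 1.71 CPM against 0.446, 0.434 and 0.738 CPM (log2 difference 1.70, SE 0.20, adjusted p = 8.29e-08). HES4, a HES-family repressor below 1 CPM, was called higher (3.71, SE 0.66), opposite to HEYL.

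None of the 11 histone deacetylases was called. HDAC1 and HDAC2, class I enzymes and targets of mocetinostat, were higher in ID3-KO cells, HDAC1 at 269, 272 and 280.0 CPM against 212, 214 and 217 CPM (log2 difference 0.36, SE 0.04, adjusted p = 3.40e-08) and HDAC2 by 0.29 (SE 0.04, adjusted p = 3.79e-06). HDAC1 lies on chromosome 1 between 30 and 35 Mb, where 41 of 50 genes were above 0. The median there was 0.20 in treated and 0.20 in untreated cells. The other class I enzymes, HDAC3 (0.03, SE 0.04) and HDAC8 (0.07, SE 0.06), did not pass the test. HDAC5, HDAC6, HDAC9 and HDAC7 of class II were lower, by -0.28, -0.29, -0.27 and -0.14. HDAC6 lies just past the stretch on chromosome X, where the 10 genes after it had a median of -0.20. HDAC4 (0.21, adjusted p = 0.0954), HDAC10 (-0.22, adjusted p = 0.185) and HDAC11 (-0.01, adjusted p = 0.883) did not pass. Of the 12 acetyltransferases 4 were higher and 2 lower. Of 9 tested genes known to respond to HDAC inhibitors, 2 were higher and 4 lower and none was called. CDKN1A, the cell cycle inhibitor p21, was 534, 465 and 506 CPM in ID3-KO cells and 527, 525 and 544 CPM in WT cells (log2 difference -0.08, SE 0.04, adjusted p = 0.166). H1F0, a linker histone, was higher in all 3 ID3-KO libraries (1588, 1510 and 1570 CPM against 1103, 1122 and 1148 CPM, log2 difference 0.47, SE 0.04, adjusted p = 8.86e-11). CDKN1A and H1F0 are given after their values were seen.

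**Figure D3:**
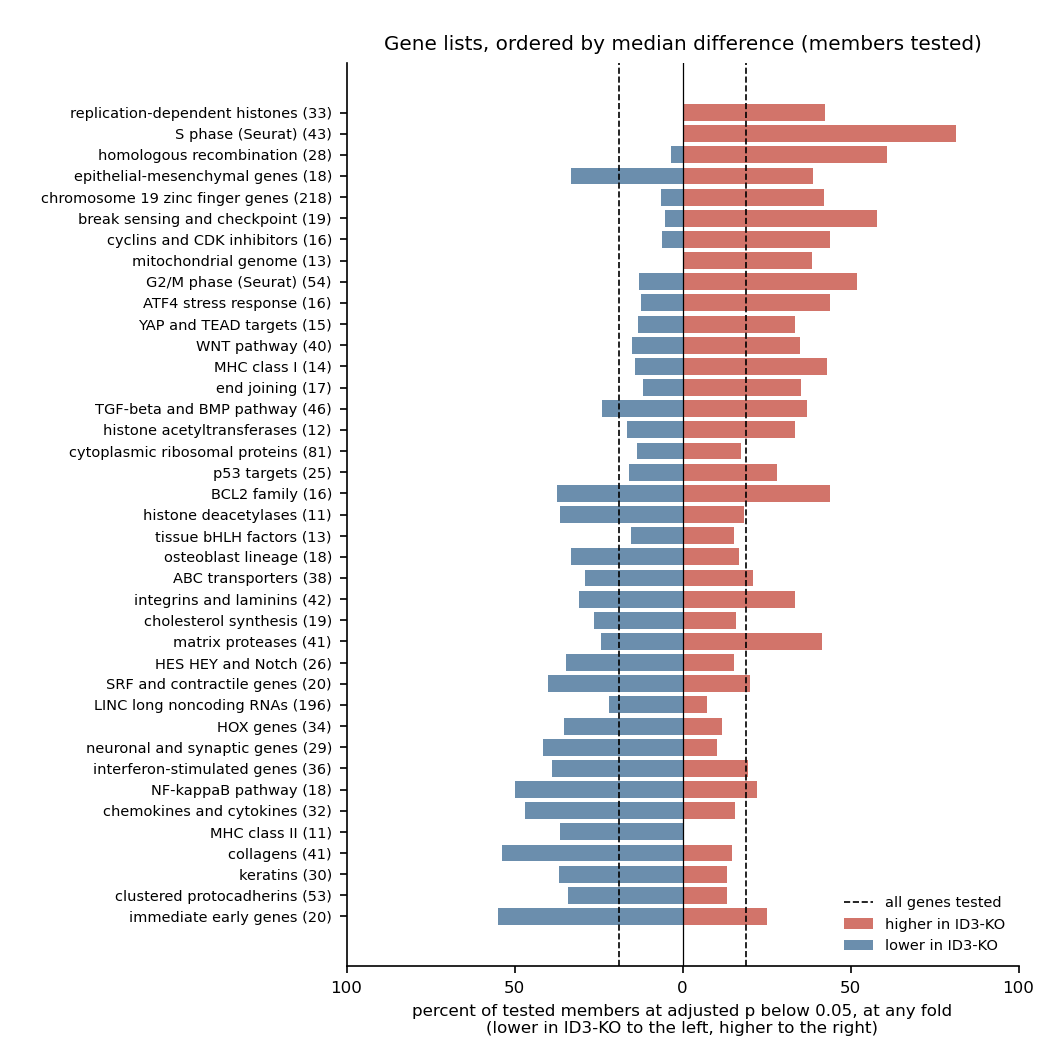
Percent of the tested members of each gene list that were higher (to the right) or lower (to the left) in treated ID3-KO than in treated WT U2OS cells at an adjusted p below 0.05 at any fold, beside all genes tested (19% in each direction). The S phase list has 35 of 43 members higher and none lower, and the immediate early list has 11 of 20 lower and 5 higher.

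Genes of DNA replication and of homologous recombination were mostly higher in treated ID3-KO cells, each by little. Of the 43 S phase genes 35 were higher and none lower at any fold, with a median of 0.29 and no call. Of the 28 homologous recombination genes 17 were higher and 1 lower, with a median of 0.25. PCNA, the sliding clamp of DNA polymerases, differed by 0.38 (SE 0.05). The replicative helicase subunit MCM4 differed by 0.31, BRCA2 by 0.33 and BRCA1 by 0.28. MCM5 (0.05, adjusted p = 0.448) and CDC6 (-0.07, adjusted p = 0.197) were S phase genes that did not pass. These 6 genes were picked after their values were seen. RECQL, a DNA helicase, was higher by 0.23 (SE 0.05, adjusted p = 3.03e-04).

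The MRN complex, which binds and trims broken ends, was not uniform. MRE11A, its nuclease (chr11:94152895-94227074), stood at 38.4, 46.2 and 41.4 CPM against 27.8, 28.2 and 28.5 CPM, a log2 difference of 0.58 (SE 0.06, adjusted p = 4.35e-09). It lies on chromosome 11 before the stretch from CCDC82, between 90 and 95 Mb, where the median of 20 genes was 0.48 in treated and 0.48 in untreated cells and 19 genes were above 0. NBN was higher by 0.28 (SE 0.05, adjusted p = 8.03e-05), and RAD50 did not pass the test (0.07, SE 0.05, adjusted p = 0.294). Of the 19 genes of break sensing and checkpoint 11 were higher and 1 lower, of 17 end joining genes 6 were higher and 2 lower, and of 25 p53 targets 7 were higher and 4 lower. ATM was the only gene called in these 3 lists.

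Other genes of the cell cycle followed to a smaller extent. Of the 54 G2/M phase genes 28 were higher and 7 lower, with a median of 0.12. TOP2A, the topoisomerase of dividing cells, was lower (-0.25, SE 0.05, adjusted p = 5.45e-05), and the proliferation marker MKI67 did not pass (0.10, SE 0.05, adjusted p = 0.0891); both were named after their values were seen. Of 16 cyclins and CDK inhibitors 7 were higher and 1 lower. Of the 33 replication-dependent histone genes that could be tested 14 were higher and none lower, with a median of 0.29. HIST1H1E, a linker histone, was called at 3.7, 2.96 and 3.11 CPM against 1.75, 1.26 and 1.34 CPM (log2 difference 1.16, SE 0.15, adjusted p = 1.95e-07). The other call was HIST1H1PS1, a pseudogene (1.40, SE 0.25). Outside the cell cycle, 92 of the 218 zinc finger genes tested on chromosome 19 were higher and 14 lower, with a median of 0.18 and ZNF701 as the only call (1.13, SE 0.10). All genes of chromosome 19 with at least 1 CPM had a median of -0.01. Those between 50 and 55 Mb had a median of 0.26 (127 genes), and those between 55 and 60 Mb one of 0.19 (133 genes). Whether the family differed apart from its regions was not tested. Of the 13 mitochondrial genes 5 were higher and none lower, and of 81 ribosomal protein genes 14 were higher and 11 lower.

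Immediate early genes, which growth signals and stress switch on within minutes, had 4 members called lower and none called higher. Of 20 members 11 were lower and 5 higher at any fold, with a median of -0.28. EGR2, a zinc finger factor, stood at 2.41, 2.25 and 1.90 CPM against 11, 9.31 and 7.60 CPM (log2 difference -2.09, SE 0.13, adjusted p = 1.27e-12). FOS stood at 53.5, 42.1 and 48.1 CPM against 179.5, 135 and 114 CPM (log2 difference -1.57, SE 0.22, adjusted p = 0.00604). FOSB differed by -1.39 (SE 0.13) and JUNB by -1.20 (SE 0.13), both AP-1 subunits like FOS. In all 4 genes the highest ID3-KO library was below the lowest WT library, while the WT libraries of FOS spread widely. EGR1 was lower by -0.59 (SE 0.10), and FOSL1, another AP-1 subunit, was higher by 0.26 (SE 0.07), both named after their values were seen.

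Matrix and adhesion genes differed in both directions. Of 41 collagens 22 were lower and 6 higher (median -0.24), with COL3A1 called higher and COL6A3, COL1A2 (-2.15, SE 0.25) and COL14A1 (-1.02, SE 0.26) called lower. Of 42 integrins and laminins 14 were higher and 13 lower. LAMA4, the laminin alpha 4 chain, was called at 3.68, 4.02 and 4.21 CPM against 1.58, 1.43 and 1.76 CPM (log2 difference 1.31, SE 0.13, adjusted p = 1.53e-09), as was ITGA8 (3.62, SE 0.29), an integrin chain below 1 CPM. Of 41 matrix proteases and their inhibitors 17 were higher and 10 lower. Of the 5 called higher, MMP3 (1.61, SE 0.13), MMP12 (2.04, SE 0.28) and MMP1 (1.26, SE 0.45) lie in the stretch on chromosome 11. MMP9, a gelatinase on chromosome 20, was called lower at 13.1, 11.2 and 11.8 CPM against 34.3, 31.8 and 31.0 CPM (log2 difference -1.42, SE 0.06, adjusted p = 9.19e-17), like TIMP1.

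Gene families that lie in clusters also showed both directions. Of the 53 clustered protocadherins 18 were lower and 7 higher (median -0.27). PCDHGB4, PCDHA6 (1.24, SE 0.07) and PCDHB2 (1.13, SE 0.07) were called higher, and PCDHB3 (-1.34, SE 0.10), PCDHGA4 (-1.17, SE 0.19) and PCDHGB2 (-1.03, SE 0.18) were among the 6 called lower. Of 30 keratins 11 were lower and 4 higher. KRT75 (1.91, SE 0.08) and KRT81 were called higher, and KRT17 (-1.20, SE 0.07), KRT15 (-1.18, SE 0.10) and KRT14 (-1.21, SE 0.45) were called lower. Of 34 HOX genes 12 were lower and 4 higher, with HOXB2 far above the others. Of 196 LINC noncoding RNAs 43 were lower and 14 higher, LINC00707 (-1.54, SE 0.12) and LINC00319 (-1.09, SE 0.16) among the 7 called lower. The 3 called higher were all below 1 CPM, namely LINC00589 (1.08, SE 0.26), LINC00327 (1.1, SE 0.41) and LINC00900, which had a mean of 0.236 CPM in ID3-KO cells and no count in WT cells.

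The lists of inflammatory genes and of MHC class II genes held more lower than higher members, and that of MHC class I genes more higher than lower ones. Of 32 chemokines and cytokines 15 were lower and 5 higher, of 18 NF-kappaB pathway genes 9 were lower and 4 higher, and of 11 MHC class II genes 4 were lower and none higher. In the first list 3 genes below 1 CPM were called lower, the cytokines CSF2 (-2.62, SE 0.34) and IL34 (-1.48, SE 0.23) and the chemokine CCL3 (-1.13, SE 0.36). CCL4, a chemokine of monocytes, was called higher (3.11, 2.29 and 2.67 CPM against 1.34, 0.952 and 1.60 CPM, log2 difference 1.03, SE 0.16, adjusted p = 9.61e-06). CCL4 lies on chromosome 17 between 30 and 35 Mb, in a picked bin where 43 of 44 genes were above 0 (median 0.64). Of 36 interferon-stimulated genes 14 were lower and 7 higher. BST2, tetherin, which holds enveloped viruses at the cell surface, was called higher at 11.3, 9.65 and 10.2 CPM against 2.97, 3.79 and 2.76 CPM (log2 difference 1.74, SE 0.10, adjusted p = 3.04e-14). MX2 (-1.11, SE 0.34) and OAS2 (-1.16, SE 0.37) were called lower. Of 14 MHC class I genes 6 were higher and 2 lower.

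In the growth factor pathways few genes of each list were called. Of 46 TGF-beta and BMP genes 17 were higher and 11 lower. INHBA, the activin A subunit, stood at 69.7, 57.8 and 60.2 CPM against 163, 159.7 and 168 CPM (log2 difference -1.38, SE 0.05, adjusted p = 8.23e-18), while the BMP antagonist NOG (1.0, SE 0.08) and the decoy receptor BAMBI (1.05, SE 0.08) were called higher. BAMBI lies on chromosome 10 between 25 and 30 Mb, in a picked bin where 17 of 19 genes were above 0 (median 0.69). NOG lies on chromosome 17 between 50 and 55 Mb, where all 10 genes were above 0 (median 0.64). Of 40 WNT pathway genes 14 were higher and 6 lower, with the receptor FZD10 (1.09, SE 0.13) called higher and the factor TCF7 (-2.24, SE 0.33) called lower. Of 18 osteoblast genes tested, ALPL, the alkaline phosphatase of bone (0.995, 0.782 and 0.863 CPM against 2.46, 2.34 and 2.52 CPM, log2 difference -1.46, SE 0.16, adjusted p = 1.39e-08), and COL1A2 were called lower, and DMP1, a matrix protein of bone and dentin below 1 CPM, was called higher (1.27, SE 0.30). TNNC1, a troponin subunit (2.03, SE 0.19), was the only call among 20 contractile genes, and BCL2A1, an inhibitor of apoptosis (-1.35, SE 0.14), among 16 BCL2 family genes. No gene was called among 16 ATF4 stress response genes (7 higher and 2 lower) and 19 cholesterol synthesis genes (3 higher and 5 lower). Of the lists not yet given, 7 of 18 epithelial-mesenchymal genes were higher and 6 lower, 5 of 15 YAP and TEAD targets were higher and 2 lower, 3 of 29 neuronal and synaptic genes were higher and 12 lower, and 8 of 38 ABC transporters were higher and 11 lower.

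To ask how much of this difference was there without the drug, untreated ID3-KO and WT U2OS cells were compared. In untreated cells 292 of 20621 genes (1.42%) were called higher and 586 (2.84%) lower. Of the 286 genes called higher after treatment, 223 were tested in untreated cells, 215 had the same sign and 128 (57.4%) were called in the same direction. Of the 475 called lower, 339 were tested there, 325 had the same sign and 207 (61.1%) were called in the same direction. No gene was called in opposite directions. The shared genes made up 45.4% and 37.2% of the calls of untreated cells that were tested after treatment, and without WT untreated replicate 1 they numbered 145 and 230. Across 20056 genes tested in both, Pearson's r between the log2 differences was 0.72. The comparisons share no library, but genes are not independent replicates.

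**Figure D4:**
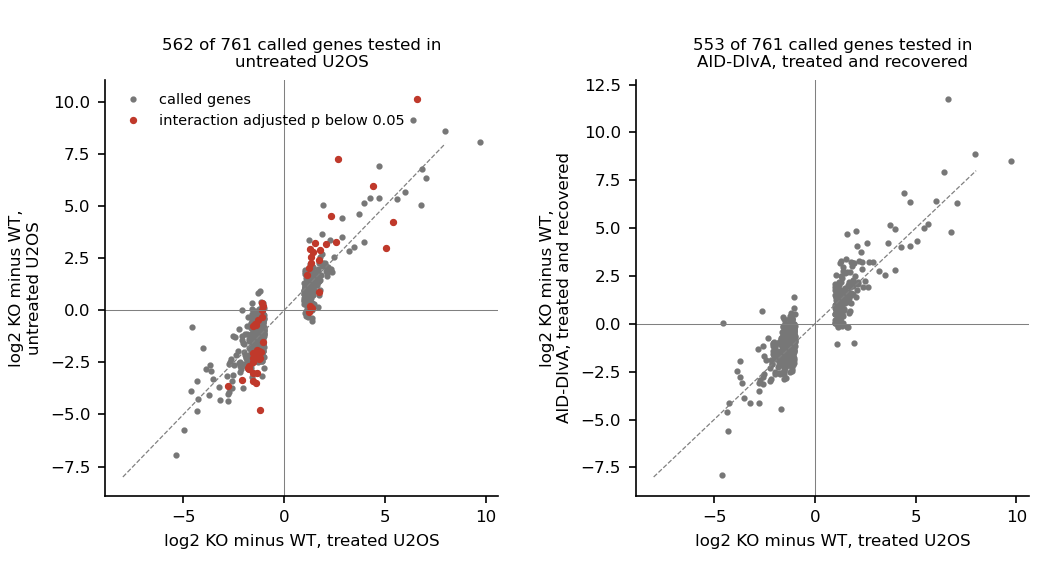
ID3-KO minus WT log2 difference of each gene called in treated U2OS cells (x axis) against its difference in untreated U2OS cells (left) and in treated and recovered AID-DIvA cells (right), for the called genes that were tested there. The dashed line marks equal differences and red points an interaction adjusted p below 0.05, and the called genes lie mostly in the quadrants of equal sign, 215 of 223 higher and 325 of 339 lower genes in untreated cells.

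Genes far apart after treatment were also apart without it. IGFBP4 differed by 8.61 in untreated cells, COL3A1 by 3.27, HOXB2 by 5.95, HEYL by -3.29, STAC2 by -4.08 and ATM by 1.43. The stretches on chromosome 11 and X had untreated medians of 1.18 and -0.98, and of 1.09 and -0.95 without WT untreated replicate 1. CORO6 and NEUROD1, at 0.0607 and 0.00670 CPM in untreated ID3-KO cells, were too low there to be tested.

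Whether the difference between genotypes was another one after treatment was tested by the interaction over the 12 U2OS libraries. At an adjusted p below 0.05 it was past the threshold for 488 of 22647 genes (2.15%). Among the genes called in treated cells it was past the threshold for 21 of 286 higher genes (7.34%), of which 6 had a larger difference after treatment, and for 28 of 473 lower genes (5.92%), of which 8 had a larger one. Without WT untreated replicate 1 these numbers were 39 (13.6%) and 65 (13.7%), against 9.03% of all genes tested.

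UNC13D, which primes secretory granules for release, had the smallest interaction p among called genes. It stood at 30.3, 26.3 and 26.8 CPM in treated ID3-KO cells and 11.1, 12.4 and 11 CPM in treated WT cells, and at 96.7, 88.9 and 86.4 CPM against 13, 11.2 and 10.9 CPM without the drug. The genotypes were apart in both states and further apart without the drug (interaction -1.67, SE 0.12, adjusted p = 5.95e-06). CTNND2, a delta catenin of cell junctions, differed by 1.41 after treatment and by 2.82 before it (interaction -1.41, SE 0.10, adjusted p = 6.70e-06). The small heat shock protein CRYAB, in the stretch on chromosome 11, had a difference of 2.08 after and 3.20 before (interaction -1.12, SE 0.14), and COL3A1 one of 2.57 after and 3.27 before (-0.70, SE 0.08).

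UBE2QL1, a relative of ubiquitin-conjugating enzymes, was called in treated cells and did not pass the test in untreated ones. It stood at 29.1, 25.2 and 26.0 CPM in treated ID3-KO cells and 10.7, 10.7 and 11.3 CPM in treated WT cells, and at 1.77, 1.69 and 1.51 CPM against 1.51, 1.21 and 1.55 CPM without the drug. The treated libraries of both genotypes lay above the untreated ones, and the genotypes overlapped without the drug and not with it (interaction 1.07, SE 0.15, adjusted p = 0.00161). IQCG, a calmodulin-binding protein (-1.47 after and -0.66 before, interaction -0.82, SE 0.11, adjusted p = 8.99e-04), and NEGR1, a neuronal adhesion molecule (-1.09 after and -0.33 before, interaction -0.76, SE 0.10, adjusted p = 7.38e-04), also had a larger difference in treated cells. The gap of untreated cells was smaller after treatment in TSSC2 (-1.52 after and -3.37 before), FBXO27, an F-box protein (-1.53 and -3.02), MAOB (-1.26 and -2.35), LCP1 (-1.76 and -2.66) and RP11-47I22.3 (-1.55 and -2.27).

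**Figure D5:**
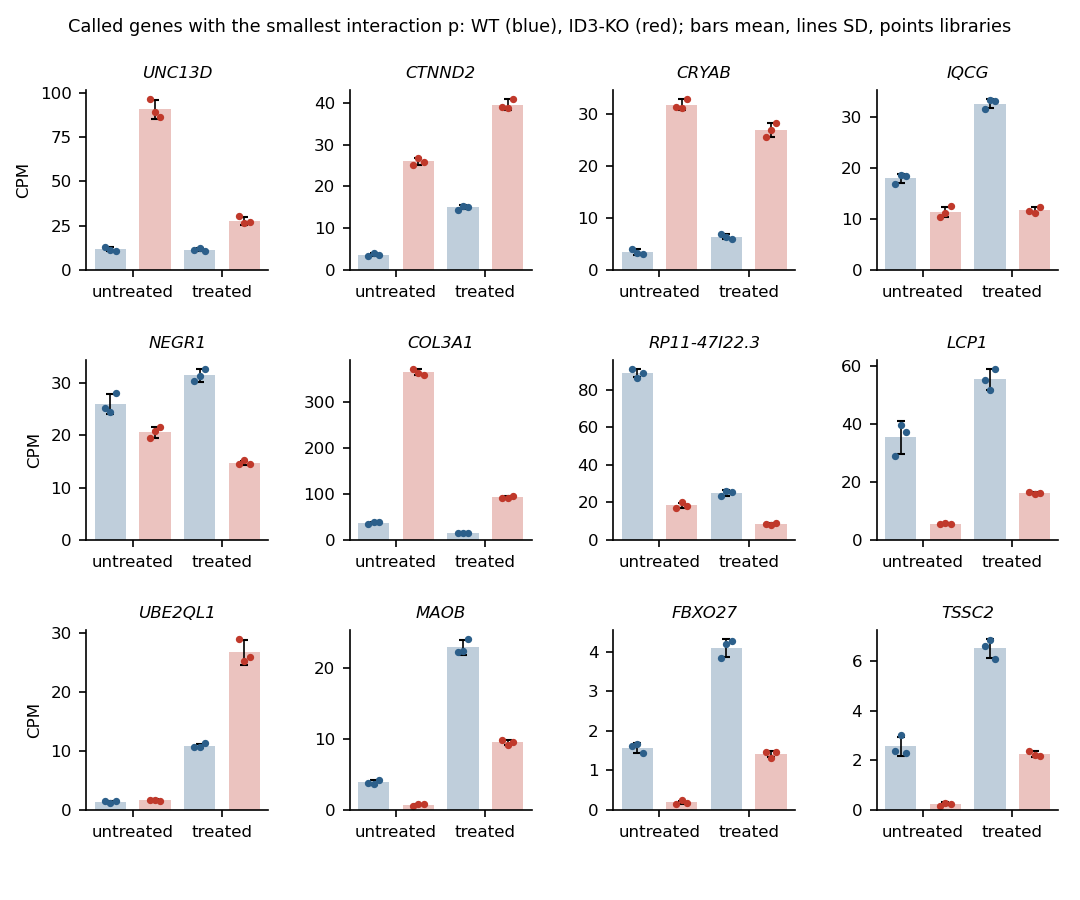
Level in each U2OS library (CPM, axis from 0) of the 12 genes with the smallest interaction p, 6 in each direction, among the genes called in treated cells, with untreated and treated ID3-KO and WT libraries side by side. Bars are means, lines SD (n = 3) and points libraries, ID3-KO in red and WT in blue. The gap between genotypes in UNC13D narrows from 86.4 to 96.7 against 10.9 to 13 CPM before treatment to 26.3 to 30.3 against 11 to 12.4 CPM after it, and that in UBE2QL1 is seen after treatment.

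Treated and recovered AID-DIvA cells gave a further view of the same genotypes after the drug, although the cell line label and the stage coincide in this comparison and cannot be told apart. In the AID-DIvA labels the treatment field names the opposite of each title, and the groups here follow the titles. There, 503 of 20100 genes (2.5%) were called higher in ID3-KO cells and 454 (2.26%) lower. Of the 286 genes called higher in treated U2OS cells, 207 were tested in AID-DIvA cells and 148 (71.5%) were called higher there, with 1 called lower. Of the 475 called lower, 346 were tested and 187 (54.0%) were called lower, with 1 called higher. These were 31.0% and 45.2% of the AID-DIvA calls that were tested in treated U2OS cells. IGFBP4 differed by 8.89 in AID-DIvA cells, COL3A1 by 4.21 and HEYL by -3.87, and the stretches on chromosomes 11 and X had medians of 1.27 and -0.96.

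Other values in AID-DIvA cells were unlike those in treated U2OS cells. Without a test of their difference, the S phase list had a median of 0.02 and the homologous recombination list one of -0.06 in AID-DIvA cells. These medians were 0.29 and 0.25 in treated U2OS cells and 0.19 and 0.19 in untreated U2OS cells. The untreated medians include WT untreated replicate 1, which stood apart, and are not given without it. In AID-DIvA cells, replicate 1 of each genotype lay further from replicates 2 and 3 than these from each other. In ID3-KO replicate 1 BRCA2 stood at 20.6 CPM, against 32.2 and 38.2 CPM in replicates 2 and 3. MCM5 was not lower there, at 284 against 271 and 280 CPM. The AID-DIvA medians include these libraries and are not given without them. KRT17 was lower in treated ID3-KO U2OS cells (-1.20) and higher in treated and recovered ID3-KO AID-DIvA cells (0.59, adjusted p = 0.002). MMP3 differed by 1.61 in treated U2OS cells and by -0.17 (adjusted p = 0.716) in AID-DIvA cells. Between both comparisons the genotype difference of KRT17 differed by -1.76 (SE 0.14, adjusted p = 3.68e-06), that of MMP3 by 1.80 (SE 0.45, adjusted p = 0.0367) and that of COL3A1 by -1.62 (SE 0.14, adjusted p = 6.38e-06). This difference of the 2 genotype differences, treated U2OS minus AID-DIvA, passed the test for 1744 of 22312 genes (7.82%), among them 31 of 282 tested genes that were called higher and 62 of 472 that were called lower in treated U2OS cells.

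Finally, 2 genes with a mean of at least 1 CPM were read in ID3-KO cells and had at most 3 counts in all over the 3 treated WT libraries, and no gene showed the reverse. ELTD1, an adhesion G protein-coupled receptor on chromosome 1, had 94, 110 and 104 counts in ID3-KO cells and 0 in each WT library. Its mean of 1.79 CPM (SD 0.267, n = 3) was at least 34.3-fold higher than a floor of 3 counts per WT library. AC073218.2, on chromosome 2, had 85, 84 and 98 counts against 0, 0 and 3, at least 29.5-fold higher. In untreated cells these genes had 94 and 195 counts over the ID3-KO libraries and 0 over the WT libraries, and in AID-DIvA cells 137 and 90 against 0. Intervals and floors from counts cover counting error only.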

How the data were processed

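RNA was sequenced from U2OS and AID-DIvA cells, WT and ID3-KO. The authors prepared stranded total RNA libraries, aligned read pairs to hg19/GRCh37 with STAR and assigned fragments to genes with featureCounts; versions are not given in the sources used here. They deposited raw counts of 57820 genes per library, from either strand and by strand, with no normalization. The counts from either strand were used, so overlapping and antisense genes may share reads. Gene identifiers look older than the GENCODE release named in the methods. Treatment times come from the methods, and the stage of the U2OS libraries from the deposited descriptions.

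The tests were run with edgeR 4.0.16 under R 4.3.3 (filterByExpr, TMM factors, robust quasi-likelihood test, Benjamini-Hochberg adjustment over the genes tested). Each ID3-KO minus WT comparison used its own 6 libraries, and the interaction used 12. A call needed an adjusted p below 0.05 and a log2 difference past 1, and an interaction an adjusted p below 0.05. A standard error was taken as the size of the log2 difference over the root of its F statistic. CPM are counts per 1000000 with TMM factors over the 12 libraries of a cell line label. Total counts were between 37878751 and 76906266, and for genes of a few CPM counting error is much of the standard error. No pair of replicates agreed within sampling noise. They are described as biological replicates and as independent experiments.

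Named genes were the 12 called genes furthest apart in each direction (at least 1 CPM, no overlap), the 5 with the smallest p, the 6 with the smallest interaction p and the 5 most abundant in each direction, up to 4 called members per direction (at least 1 CPM) of 43 gene lists, and the ID, E protein, HDAC, MRN and RECQL genes. Members, lists and tests were chosen with earlier results of these data known. Some genes that the rule takes in are not reported here. Genes outside the rule are marked as named after their values were seen; called list members below 1 CPM were named after that too. Lists are described by counts and medians, without a set test. The alternatives were DESeq2 1.42.0, other size factors and filters, a fold test, reverse-strand counts, a replicate block, a joint fit and each library left out. The steps were tested on simulated counts: of 200 genes changed by 1.5 on the log2 scale among 21800, 93% were recovered for the treated comparison and 1.06% of calls were false, and for the interaction, among 22647 genes, 67.5% and 8.78%. In the simulation all other genes had equal means in every group, and no library stood apart. These rates therefore need not hold for the real libraries.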

Additional observations from a re-analysis of the deposited data

Results flagged for a closer look

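For 12 genes called in treated U2OS cells the ID3-KO minus WT difference was another one in treated than in untreated cells by the interaction test of edgeR. They are the 6 genes in each direction with the smallest interaction p, and each stayed at an adjusted p below 0.05 in the 12 of 12 fits that left out 1 library. The interaction is the log2 difference after treatment minus that before it. It was negative for UNC13D (-1.67), CTNND2 (-1.41), CRYAB (-1.12), IQCG (-0.82), NEGR1 (-0.76) and COL3A1 (-0.70). It was positive for RP11-47I22.3 (0.72), LCP1 (0.89), UBE2QL1 (1.07), MAOB (1.08), FBXO27 (1.49) and TSSC2 (1.85). CRYAB and MAOB lie in the shifted stretches of chromosomes 11 and X.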

How the results depend on the processing

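No called difference of a named gene changed sign under the alternatives run for single genes, which left out the fold test and the joint fit. The counts of treated cells, 286 higher and 475 lower, became 181 and 281 with at least 10 counts in every library (fewer genes tested), 140 and 183 at a mean of 1 CPM or more (chosen after seeing the data), and 4133 and 4134 with no fold threshold, and ran from 284 to 324 and from 459 to 552 with each library left out. DESeq2 called 227 and 363. The joint fit of the 12 U2OS libraries called 227 and 395 in treated cells and 432 and 792 in untreated cells. In untreated cells the counts were 1352 and 1780 with no fold threshold, 333 lower in the test against a fold of 1.5, and 193 to 398 and 370 to 782 with a library left out, the highest without WT untreated replicate 1 and the lowest without ID3-KO untreated replicate 1 (389 lower without replicate 2). The interaction gave 249 positive and 239 negative genes, 418 and 426 with DESeq2, 240 and 242 with reverse-strand counts, 434 positive with no filter, and 134 to 1034 and 123 to 1057 with a library left out, the highest without WT untreated replicate 1 (next 275 and 267) and at most 159 and 158 without any treated or any ID3-KO untreated library. Negative genes were then the larger number without ID3-KO untreated replicate 2 (145 and 154), WT untreated replicate 1 and WT untreated replicate 3 (223 and 232). In AID-DIvA cells the counts were 2537 and 2222 with no fold threshold, 268 lower with at least 10 counts in every library, and 453 to 535 and 422 to 505 with a library left out. The difference between treated U2OS and AID-DIvA cells gave 728 positive and 1016 negative genes (41.7% positive), 574 and 1182 (32.7%) with DESeq2 size factors, 511 and 1221 (29.5%) with upper-quartile factors, and 419 to 819 and 704 to 1395 with a library left out (419, 449 and 481 positive without treated WT replicate 1, treated WT replicate 2 and treated ID3-KO replicate 3). Of genes read in 1 genotype, 5 passed with at most 6 counts. The median of the stretch on chromosome 11 stayed within 1.23 to 1.29 and that on chromosome X within -0.99 to -0.96, and calls in the gene lists numbered 70 to 78.

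Same-numbered treated ID3-KO and WT libraries did not deviate together (correlations 0.03, -0.04 and -0.20), so the numbers were not taken as pairs. For treated against untreated libraries, same-numbered correlations were 0.21, 0.26 and 0.02 in ID3-KO and 0.09, 0.23 and -0.09 in WT. Those of other numbers ran from -0.27 to 0.13 in ID3-KO and from -0.22 to 0.18 in WT. The replicate block gave 294 and 485 calls in treated cells, and NOG (0.9985) fell just short of the fold threshold. For the interaction it gave 202 positive and 191 negative genes. PCDHGA4, LINC00319, CDK16, PCDHGB2, NOG, CCL4 and BAMBI lost their call in at least 1 fit without a library, with log2 differences near the threshold of 1. Depth limits genes below 1 CPM, 11 of the 102 named genes not being tested with at least 10 counts in every library.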
